A study of Homo sapiens with 4 samples.

Results

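The HOX genes encode homeodomain transcription factors that give cells their position along the head to tail axis of the embryo. They lie in 4 clusters, HOXA on chromosome 7, HOXB on chromosome 17, HOXC on chromosome 12 and HOXD on chromosome 2. Within a cluster, genes at the 3′ end are used early and towards the head, and genes at the 5′ end late and towards the tail. Silent HOX genes are held in compact chromatin by Polycomb complexes, and Trithorax complexes keep active ones open. HOX proteins bind DNA together with PBX and MEIS cofactors. The genes described here are the protein-coding genes of the HOXA, HOXB, HOXC and HOXD families that could be analysed. They were chosen by name and not by a measured value, though earlier results of these data were known. There are 38 of them, among 19970 protein-coding genes.

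Accessible chromatin was measured by ATAC-seq, in which the transposase Tn5 cuts open DNA and attaches sequencing adapters to it. The cells were SK-N-BE(2)C, an established MYCN-amplified neuroblastoma line, in 4 samples. The control group of 2 replicates received Cas9 with a non-targeting guide RNA and is labelled wildtype. The sgSNHG1 group of 2 replicates received Cas9 with guides against SNHG1, the host gene of several small nucleolar RNAs, and is labelled SNHG1 knockout. The study reports that its guides lowered SNHG1 expression but did not remove it completely. The protocol listed for all 4 samples has transfection together with a fluorescent reporter, puromycin selection and the growth of clones from sorted single cells, and whether the control also received the reporter is not given separately. Which SNHG1 clone was used for ATAC-seq is not given in the sources used here, so that a difference between clones and an effect of the guides cannot be told apart.

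The 2 replicates of each group were combined before peaks were called, which leaves 1 peak list per group and no replicate spread. No test between the groups was therefore possible, and every comparison here describes 2 pooled samples. Fold enrichment, the value used throughout, is the height of the fragment pileup at a peak's summit over the local background of the same list. The pileup, the number of fragments that cover the summit, is the depth behind each value, and its median was 24 in the 47610 control peaks and 20 in the 42682 sgSNHG1 peaks. Intervals are 95%. Those of shares treat genes or peaks as independent draws, and those of medians reflect the spread between genes or pairs. Standard errors cover the counting error of the pileups only. None of them covers the spread between replicates. At the targeted gene itself, SNHG1 on chromosome 11, the control list gave a promoter fold enrichment of 5.71 and the sgSNHG1 list 6.04. That peak lies at the start of the gene and gives no measure of its transcript. Of 10 genes that mark adrenergic neuroblastoma, 8 carried a promoter peak in both lists, among them HAND2, GATA3 and ISL1, and all 8 values were lower in sgSNHG1 (median log2 ratio -0.26). Of 14 markers of other cell types, 4 had one in control and 3 in sgSNHG1, and CDH1, COL1A1, EPCAM and MITF were those listed.

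The DNA under 5 accessible HOX sites is shown here, since the results below return to these sites. All are read 5′ to 3′ on the plus strand of GRCh38, and capitals mark a match to a consensus on either strand. The HOXD1 sequence is chr2:176188586-176188667, directly upstream of the transcription start site (TSS) of HOXD1 and at the highest HOX peak of the control list. Its capitals mark 2 GC boxes (GGGCGG), and a CCAAT box next to the first. The HOXC4 intron sequence is chr12:54017948-54018068, at the highest HOX peak of the sgSNHG1 list, with a core of the CTCF motif (CNAGGNGGC) and a CCAAT box. The second HOXC4 intron sequence is chr12:54036961-54037081, where the ratio of sgSNHG1 over control was the highest among HOX pairs, with an AP-1 site (TGANTCA). The HOXB6 intron sequence is chr17:48602673-48602793, the strongest HOX peak found in the sgSNHG1 list alone, and the HOXA6 sequence is chr7:27150952-27151072, upstream of HOXA6. E-boxes, a short motif counted further on, are not marked. The last pair hold none of the marked motifs and are in lower case.
HOXD1 upstream: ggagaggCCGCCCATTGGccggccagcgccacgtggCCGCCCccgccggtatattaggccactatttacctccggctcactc
HOXC4 intron: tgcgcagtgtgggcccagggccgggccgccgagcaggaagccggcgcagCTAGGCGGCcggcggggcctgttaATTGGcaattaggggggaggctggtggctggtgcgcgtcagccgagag
HOXC4 intron, second site: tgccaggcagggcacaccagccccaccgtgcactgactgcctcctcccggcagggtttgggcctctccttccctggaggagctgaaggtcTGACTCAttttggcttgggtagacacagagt
HOXB6 intron: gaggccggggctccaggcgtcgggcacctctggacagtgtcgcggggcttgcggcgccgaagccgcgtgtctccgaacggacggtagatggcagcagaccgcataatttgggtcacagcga
HOXA6 upstream: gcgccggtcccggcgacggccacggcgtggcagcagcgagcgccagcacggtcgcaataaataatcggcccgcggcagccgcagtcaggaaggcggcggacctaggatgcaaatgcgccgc

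Few HOX promoters carried a peak in these cells. A promoter peak, a peak that reaches within 1 kb of any annotated TSS of a gene, was present for 13 of 38 HOX genes in control, 34.2% (Wilson interval 21.2 to 50.1), and for 11 in sgSNHG1, 28.9% (17.0 to 44.8). Among all protein-coding genes the shares were 66.3% and 62.1%. Both lists held a promoter peak for 10 HOX genes, 26.3% against 60.4% of all genes. HOXA5, HOXC9 and HOXC13 had a promoter peak in control alone, 7.89% of the HOX genes against 5.92% of all genes. HOXC5 had one in sgSNHG1 alone, 2.63% against 1.71%. The other 24 HOX genes had no promoter peak in either list.

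Peaks were spread unevenly over the 4 clusters. All 10 HOXB genes lacked a promoter peak in both lists, which with 10 genes allows a share of up to 27.8%. In HOXD, 6 of 9 genes had one in both lists, namely HOXD1, HOXD3, HOXD8, HOXD9, HOXD10 and HOXD13, and HOXD4, HOXD11 and HOXD12 had none. The interval of the HOXD share, 35.4 to 87.9%, did not reach that of HOXB, though genes of a cluster are neighbours and not independent. In HOXC, 4 of 9 genes had one in control and 3 in sgSNHG1, and HOXC6, HOXC8, HOXC11 and HOXC12 had none in either. In HOXA, HOXA5, HOXA6 and HOXA13 had one in control and HOXA6 and HOXA13 in sgSNHG1, while HOXA2, HOXA3, HOXA4, HOXA7, HOXA9, HOXA10 and HOXA11 had none. By position along the axis, 2 of 7 anterior genes (paralog groups 1 to 3), 4 of 15 central genes (4 to 8) and 7 of 16 posterior genes (9 to 13) had a promoter peak in control. In sgSNHG1 the counts were 2, 4 and 5, and the intervals of the 3 classes overlapped in both lists.

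**Figure D1:**
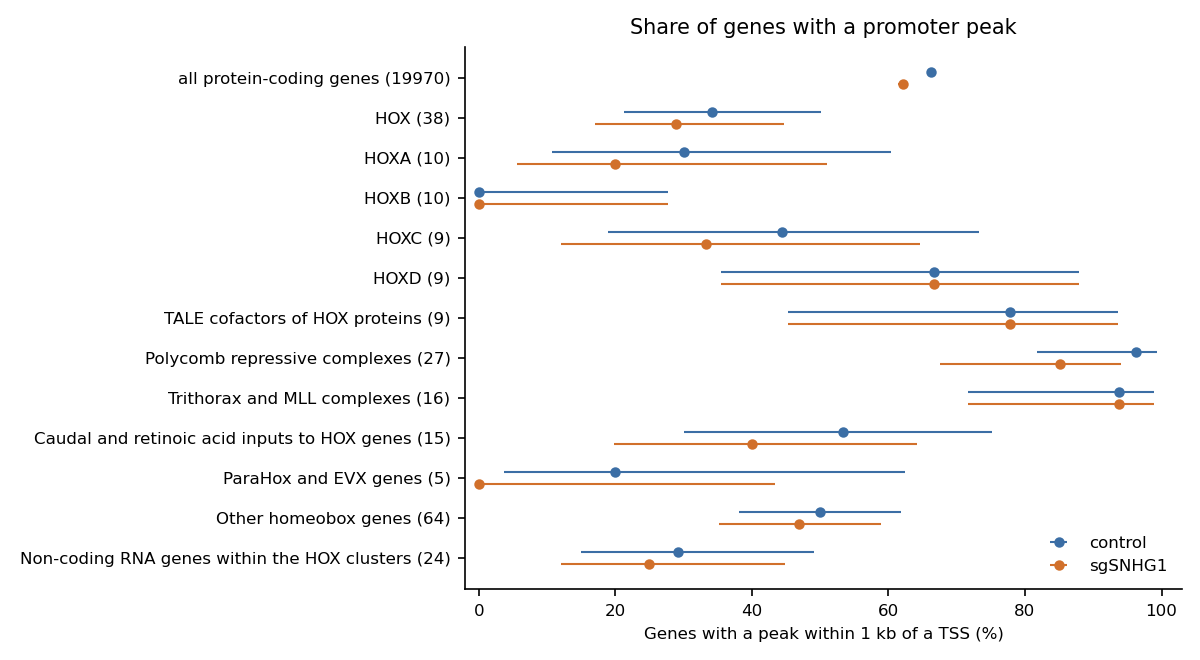
Share of genes with a promoter peak (x axis, %) for all protein-coding genes, the HOX genes, each cluster and the other gene lists (y axis, number of genes in brackets), in control (blue) and sgSNHG1 (orange); bars are 95% Wilson intervals. The HOX genes sit at 34.2% and 28.9%, HOXB at 0 and HOXD at 66.7% in both lists, beside 66.3% and 62.1% of all genes.

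Over the HOX genes that carried a promoter peak, the median was lower than over all genes with one, though HOXD1 and HOXD9 stood above the latter in control. The median of the highest promoter fold enrichment was 5.54 over the 13 HOX genes in control and 5.10 over the 11 in sgSNHG1, against 7.60 and 7.35 over all protein-coding genes with a peak. Over the 10 HOX genes with a promoter peak in both lists, the median log2 ratio of sgSNHG1 over control was -0.05 (interval -0.65 to 0.22), with 5 genes lower and 5 higher. The tally and the sign of the median turn on HOXC4: with a peak that starts 23 bp outside its promoter window, described below, 4 were lower and 6 higher, with a median of 0.03. All protein-coding genes gave a median of -0.07. The clusters are described in turn.

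HOXD1, the anterior gene at the 3′ end of its cluster, had the highest HOX promoter peak in control and the largest difference between the lists. Its fold enrichment was 10.3 on 45 fragments in control and 5.23 on 19 fragments in sgSNHG1 (log2 ratio -0.98, counting error 0.39). It was the only one of the 18 pairs of HOX peaks to differ by more than 2 counting errors in either direction, at 2.49. Over all 31663 pairs 1.55% were lower by more than 2 counting errors, and the share higher is not given here. On the pileup scaled to the genome-wide background of each list, the log2 ratio was -0.89. Both scales rest on the same summit pileups, so this is not separate evidence of a difference. The control summit lies 22 bp from the HOXD1 start, within the sequence shown above, and the sgSNHG1 summit 67 bp from it. HAGLR, a long non-coding RNA that runs the other way from the same region, has its start within 1 kb of the same peak.

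The peaks at HOXD8, HOXD9 and HOXD10, of the central and posterior groups that pattern the trunk and limbs, were also higher in control. HOXD9 had a fold enrichment of 7.70 on 39 fragments in control and 5.25 on 23 in sgSNHG1 (log2 ratio -0.55, counting error 0.38). HOXD8 had 6.86 on 33 fragments in control, under a peak 1166 bp wide, and 4.37 on 18 in sgSNHG1, where the same stretch held 3 narrower peaks. HOXD10 had 6.26 on 25 fragments in control and 4.56 on 17 in sgSNHG1 (log2 ratio -0.46, counting error 0.45). Each of these 3 promoters was lower in sgSNHG1 by less than 2 counting errors, so that counting alone does not separate the lists at any of them.

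HOXD13 and HOXD3 lay on the other side. HOXD13, the last gene of the 5′ end and a regulator of digits, had a fold enrichment of 3.61 on 17 fragments in control and 3.94 on 16 in sgSNHG1 (log2 ratio 0.13, counting error 0.50). HOXD3 had 3 promoter peaks in control, the highest at 4.17 on 23 fragments at its upstream start, and 1 in sgSNHG1, at 5.10 on 18 fragments at another start within the gene. The highest HOXD3 sites of the lists are thus different places. The peak at the second of them was 3.65 in control (log2 ratio 0.48, counting error 0.49). Over the 6 HOXD genes the median was 6.56 in control and 4.83 in sgSNHG1, and the median log2 ratio was -0.51 (interval -0.98 to 0.29).

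**Figure D2:**
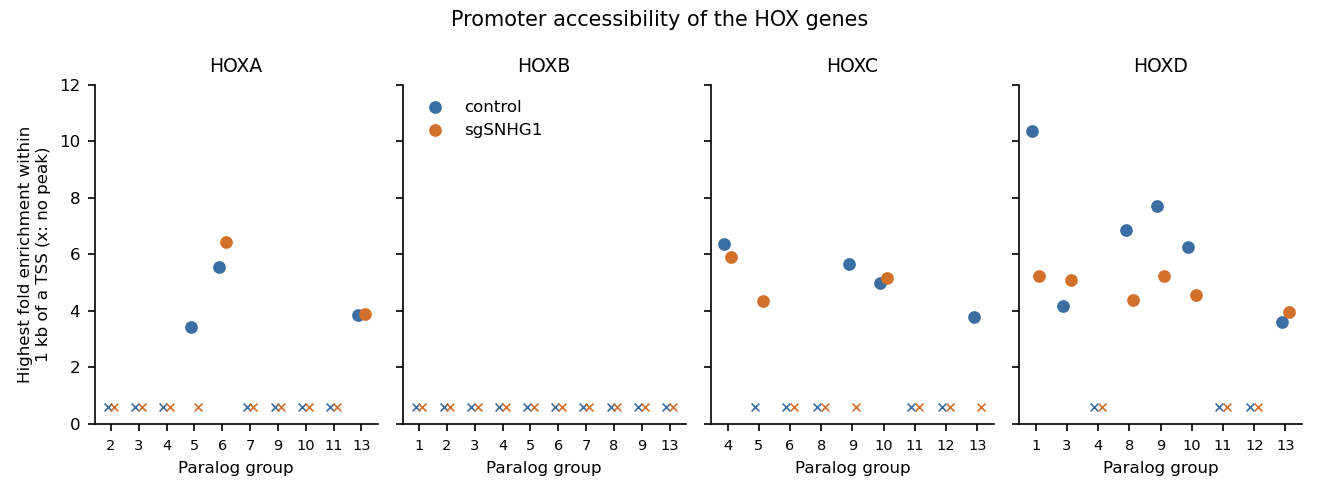
Highest fold enrichment among the promoter peaks of each HOX gene (y axis) by cluster and paralog group (x axis), in control (blue) and sgSNHG1 (orange); a cross marks a gene with no promoter peak. HOXD1, HOXD8, HOXD9 and HOXD10 are higher in control, HOXA6 is higher in sgSNHG1, and all HOXB genes are crosses.

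HOXC held the only HOX promoter found in sgSNHG1 alone, beside a pair found in control alone. HOXC9, a posterior gene, had a promoter peak of 5.66 on 24 fragments in control, 18 bp from a start, with a -log10 q of 10.5. No sgSNHG1 peak overlapped it, and it was the only control peak of the clusters with a -log10 q of at least 10 of which this held. HOXC13, at the 5′ end, had 3.78 on 12 fragments in control and no peak in sgSNHG1, and this peak lies just upstream of the cluster's first base. HOXC5, a central gene, had 4.36 on 26 fragments in sgSNHG1 alone, 168 bp from its start. HOXC10 was nearly level, with 4.98 on 19 fragments in control and 5.15 on 21 in sgSNHG1.

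HOXC4 runs from 54016931 to 54056030, at the 3′ end of the cluster. It had 4 promoter peaks in control and 3 in sgSNHG1, and the highest stood at different places. At the intron site with the CTCF core, at 54017753 to 54018493 on chromosome 12, control had 1 peak of 741 bp with a fold enrichment of 6.37 on 40 fragments. In sgSNHG1 the same stretch held 2 peaks. The narrower had its summit at 54018017, beside the control summit at 54018008, and a fold enrichment of 7.06 on 37 fragments, the highest of the sgSNHG1 list in any HOX cluster. It starts 23 bp outside the promoter window and is not among the promoter peaks counted, and with it the log2 ratio of HOXC4 would be 0.15 in place of -0.11. The wider, which overlaps the control peak by more bases and was therefore its pair, had 4.38 on 22 fragments and a log2 ratio of -0.54. The direction at this site thus depends on which of the sgSNHG1 peaks is taken. At the intron site with the AP-1 match, the values were 3.90 on 23 fragments in control and 5.92 on 32 in sgSNHG1 (log2 ratio 0.60, counting error 0.39). It was the highest ratio among the HOX pairs.

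HOXA had few peaks and small differences. HOXA6 had a promoter fold enrichment of 5.54 on 23 fragments in control and 6.43 on 24 in sgSNHG1 (log2 ratio 0.22, counting error 0.42). HOXA13, expressed in the most distal and caudal tissues, had 3.86 on 14 fragments in control and 3.89 on 13 in sgSNHG1. HOXA5 had 3.44 on 11 fragments in control alone, close to the smallest pileup of any control peak, which was 10. None of the HOXA values differed by as much as its counting error where both lists had a peak.

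HOXB held peaks, but none at a HOXB gene start. In control the 4 peaks lay at 48618678 to 48618857 in an intron of HOXB7 (fold enrichment 3.78), at 48636605 to 48636777 in an exon of LINC03057 (5.43), and at 48671643 to 48671825 (3.20) and 48678282 to 48678664 (5.63) in an intron of LINC02086, all on chromosome 17. In sgSNHG1 the LINC03057 site was at 4.07, and the other 3 had no peak. A separate peak at 48602699 to 48602800, with a fold enrichment of 6.66 on 28 fragments and a -log10 q of 13.9, was present in sgSNHG1 alone. It was the only peak of the clusters with a -log10 q of at least 10 that was found in sgSNHG1 alone. It lies in introns of HOXB3, HOXB6 and HOXB-AS3, with its summit 242 bp from a start of the long non-coding RNA HOXB-AS3 and 1399 bp from the nearest start of HOXB6. It was 102 bp wide, and its sequence is printed above.

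Between the open sites ran long stretches without a peak. The longest in HOXB was 90.2 kb in control and 92.0 kb in sgSNHG1, at opposite ends of the cluster. In HOXA it was 42.8 and 50.5 kb, in HOXC 46.1 and 46.2 kb, both at the 5′ end with HOXC11, HOXC12 and HOXC13, and in HOXD 16.6 and 17.2 kb. Of the 24 HOX genes without a promoter peak in either list, 13 had the edge of the nearest control peak more than 10 kb from any start and 12 the nearest sgSNHG1 peak. HOXB1 was the farthest in control, at 87.7 kb, and HOXB13 the farthest in sgSNHG1, at 76.2 kb. HOXD12 and HOXD11 stood within 1.99 and 4.10 kb of a control peak.

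**Figure D3:**
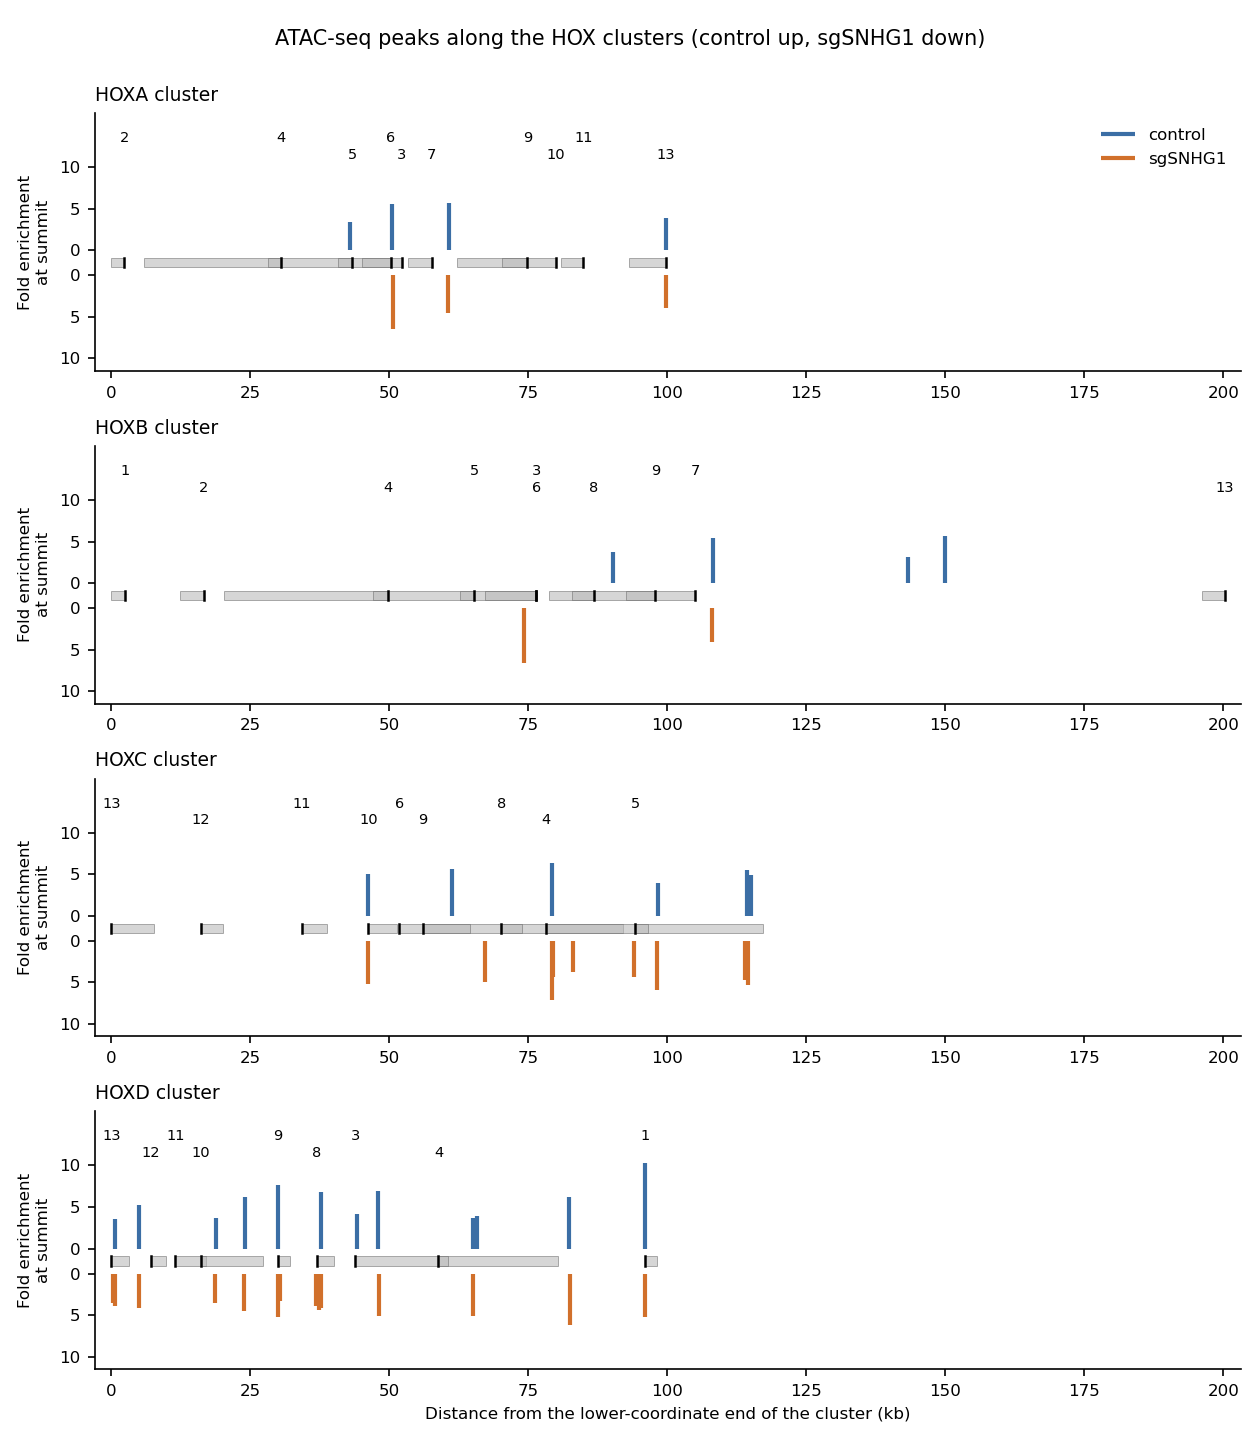
Peaks along the 4 HOX clusters (x axis, kb from the lower-coordinate end) with fold enrichment at the summit (y axis), control upwards in blue and sgSNHG1 downwards in orange; grey boxes are the HOX genes, black ticks their starts and the digits their paralog groups. Peaks are densest in HOXD, and the stretch of HOXB from HOXB1 to HOXB5 and the 5′ end of HOXC hold none.

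HOXD, HOXC and HOXA held more peaks per length than the genome, and HOXB did not in sgSNHG1. Together the clusters held 26 control and 28 sgSNHG1 peaks, 5.05 and 5.43 per 100 kb, against 1.57 and 1.41 over the genome. HOXD had 12.2 and 14.3 per 100 kb, HOXC 5.12 and 7.68, HOXA 4.01 and 3.01, and HOXB 2.00 and 0.999. The 5 Mb on either side had 1.60 and 1.58 around HOXD, 2.91 and 2.62 around HOXC, 2.17 and 2.01 around HOXA, and 2.99 and 2.64 around HOXB, which alone lay below its surroundings. A promoter window of a HOX gene was reached by 17 of the 26 control peaks, 65.4%, and by 17 of the 28 sgSNHG1 peaks, 60.7%. The 5 highest control peaks were those of HOXD1, HOXD9, the HOXD3 intron at 176140394 to 176140983 (6.99), HOXD8 and the HOXC4 intron. The 5 highest sgSNHG1 peaks were those of the HOXC4 intron (7.06), the HOXB6 intron (6.66), HOXA6 (6.43), an exon of HAGLR at 176175039 to 176175390 (6.20) and the second HOXC4 intron site (5.92). HOXD thus held 4 of the 5 highest sites in control and 1 in sgSNHG1.

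HOX peaks were shared between the lists about as often as all peaks. Of the control peaks in the clusters 18 of 26, 69.2% (interval 50.01 to 83.5), overlapped an sgSNHG1 peak by at least 1 bp, against 66.7% of all control peaks. Of the sgSNHG1 peaks 22 of 28, 78.6% (60.5 to 89.8), overlapped a control peak, against 78.2% of all. Where the overlap had to cover 50% of both peaks, the HOX shares were 42.3% and 39.3%, against 48.2% and 53.8% of all control and sgSNHG1 peaks. The 8 control peaks without a partner had pileups of 11 to 24 fragments, with a median of 19, and the 18 with one had a median of 25.5. In sgSNHG1 the 6 without a partner had pileups of 14 to 28, with a median of 21, and the 22 with one had a median of 18. In HOXD, 2 of 12 control peaks and 1 of 14 sgSNHG1 peaks had no partner.

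Peaks that overlapped best in both directions formed 18 pairs, 10 in HOXD, 4 in HOXC, 3 in HOXA and 1 in HOXB. Their median log2 ratio was -0.20 (interval -0.46 to 0.05), with 11 of 18 lower, 61.1%, against -0.05 and 55.6% over all pairs. In HOXD it was -0.39 (-0.74 to 0.13), with 7 of 10 lower, in HOXC 0.01 and in HOXA 0.01. The HOXB pair was at -0.42. Peaks within 5 Mb on either side of HOXD gave 0.01, and those around HOXA, HOXB and HOXC gave -0.03, -0.08 and -0.01. On the scaled pileup the median over the HOX pairs was -0.03, with 9 of 18 lower, and in HOXD -0.18, with 6 of 10 lower.

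Few pairs differed by much. A log2 ratio of -0.5 or lower was found in 4 of the 18 pairs, at HOXD1, HOXD8, HOXD9 and the HOXC4 intron, against 9.06% of all pairs. With each control peak set against the strongest sgSNHG1 peak overlapping it, a pairing chosen after seeing the data, the HOXC4 intron left this group and 3 of 18 remained, against 8.69% of all control peaks with a partner. A ratio of 0.5 or higher was found in 1, the second HOXC4 intron site, against 5.37% of all pairs. On the scaled pileup, which rests on the same summit pileups, the pairs of HOXD1, HOXD8 and HOXD9 were at -0.89, -0.60 and -0.40.

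**Figure D4:**
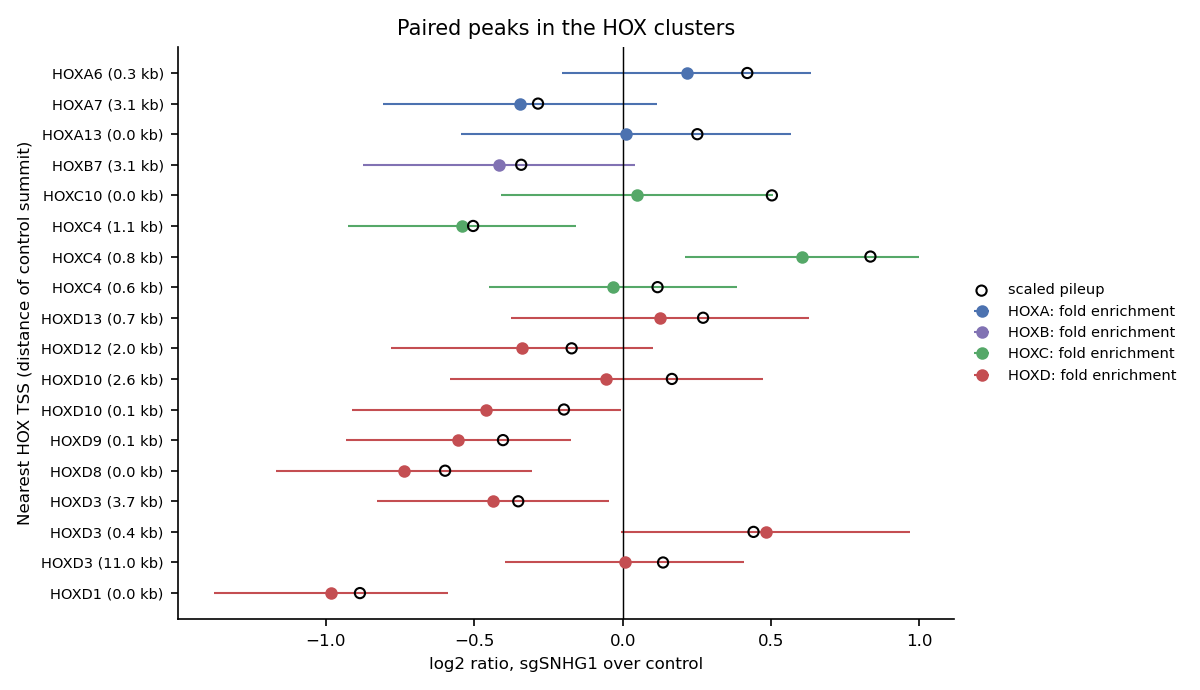
Log2 ratio of sgSNHG1 over control for the 18 paired peaks of the HOX clusters (x axis), ordered along each cluster and named by the nearest HOX gene with the distance of the control summit (y axis). Filled points are fold enrichment with 1 counting standard error, open circles the scaled pileup; HOXD1 at -0.98 lies farthest from 0 and the second HOXC4 site at 0.60 is the highest.

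HOX peaks were narrower in sgSNHG1, as peaks were over the whole list. The median HOX peak was 305 bp wide in control and 147 bp in sgSNHG1, beside 332 and 238 bp over all peaks. Of the 18 pairs 16 were narrower in sgSNHG1, 88.9% against 79.8% of all pairs, with a median log2 ratio of width of -0.70 (interval -1.32 to -0.50) against -0.42 over all pairs. More than 1 sgSNHG1 peak overlapped 3 of the 26 control peaks, 11.5% against 3.46% of all control peaks. These were the peaks of HOXD8 with 3 pieces, HOXD9 with 2 and the HOXC4 intron with 2. Peaks covered 10138 bp of the clusters in control, beside 6073 bp in sgSNHG1. The unscaled pileup was lower in sgSNHG1 in 14 of the 18 pairs and higher in 4, and the part of depth in the narrower widths was not tested.

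The local background around the HOX peaks was higher in sgSNHG1. The local background is the number of fragments expected at the summit from the surrounding sequence, and it was scaled to the genome-wide background of its list, 2.20 fragments in control and 1.72 in sgSNHG1. It was higher in sgSNHG1 for 17 of the 18 HOX pairs, 94.4%, with a median log2 ratio of 0.12 (interval 0.04 to 0.19). Over all pairs it was higher in 41.5%, with a median of -0.01. Over the 22710 pairs with control pileups in the range of the HOX pairs, 14 to 45 fragments, it was higher in 47.9%, with a median of 0. Among promoter peaks of protein-coding genes it was higher in 42.0%, and among peaks in CpG-rich sequence in 41.8%.

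Around the clusters the median local background was not higher in sgSNHG1. Pairs within 5 Mb of HOXA, HOXB, HOXC and HOXD had medians of -0.03, 0.00, -0.01 and -0.08. At the other homeobox genes 15 of 32 pairs had a higher local background in sgSNHG1, at the Polycomb genes 9 of 30, and at the TALE cofactor genes 7 of 11. The TALE median of 0.04 had an interval, -0.14 to 0.19, that contains the HOX median. Among HOX pairs the highest values were at HOXC10, with 0.48, and HOXD10, with 0.26, and the pair with a lower background was the inner HOXD3 start, with -0.17. The comparison was chosen after the values had been seen, neighbouring peaks draw their local background from overlapping sequence, and so the 18 pairs are not independent. The part of sequencing depth in this difference was not tested.

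**Figure D5:**
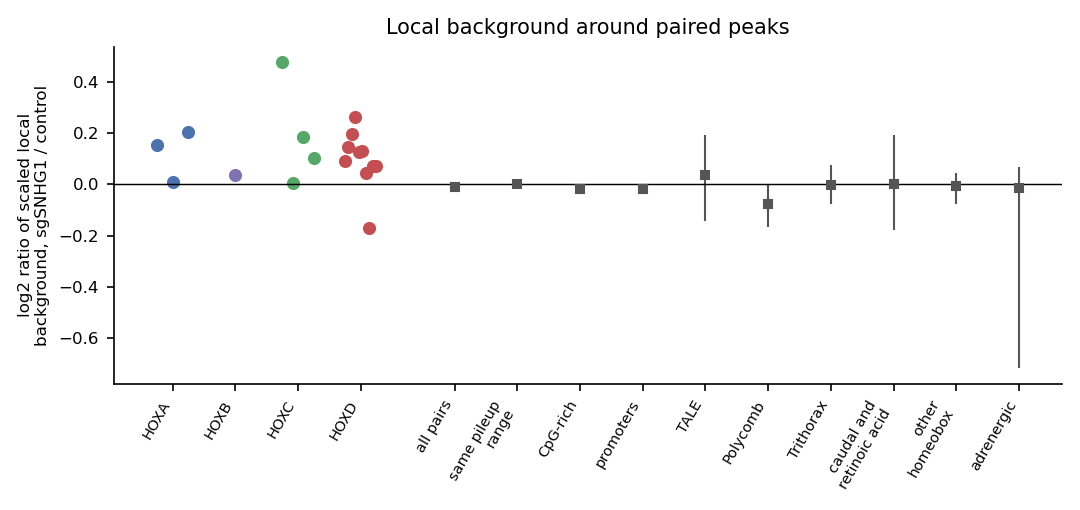
Log2 ratio of the scaled local background, sgSNHG1 over control (y axis), for each HOX pair by cluster (coloured points) and, as grey squares with 95% intervals, the median over comparison pairs (x axis). Of the 18 HOX points 17 lie above 0, and the medians of all pairs, pairs of the same pileup range, CpG-rich peaks and promoters lie between -0.02 and 0.

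The sequence under HOX peaks was rich in CpG. Within 100 bp of the summits the median GC content was 62.4% in control and 65.9% in sgSNHG1, against 55.7% over all peaks of either list. A ratio of observed to expected CpG of at least 0.6 was reached by 23 of 26 control peaks, 88.5%, and by 22 of 28 sgSNHG1 peaks, 78.6%, against 31.6% and 33.7% of all peaks. All 12 control peaks in HOXD reached it.

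In both lists the CTCF core, CCAAT box, GC box and cyclic AMP response element stood above their shares in all peaks. Motifs were searched on both strands. CTCF is the insulator protein that anchors chromatin loops, and sites between HOX genes are known to separate active from silent parts of a cluster. Its core CNAGGNGGC was present in 6 of 26 control peaks, 23.1%, and in 9 of 28 sgSNHG1 peaks, 32.1%, against 8.60% and 8.61% of all peaks. The CCAAT box (CCAAT) was present in 34.6% and 28.6%, against 24.8% and 26.1%, and the GC box in 30.8% and 39.3%, against 25.2% and 26.7%. The E-box CANNTG, the site of MYCN and of neuronal bHLH factors, was present in 46.2% and 50%, against 66.9% and 67.5%. These cluster counts rest on 26 and 28 peaks and many of the sites are seen in both lists. HOX peaks also held more GC than all peaks, and the part of base composition in these shares was not tested.

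The other motifs were each under few HOX peaks. The cyclic AMP response element (TGACGTCA) was present in 2 peaks of each list, 7.69% and 7.14%, against 0.899% and 0.998% of all. The AP-1 site was present in 2 of each, the same shares, against 7.11% and 8.15% of all. The joint HOX and PBX site TGATTNAT was found under no HOX peak, with 3.09% and 3.32% of all peaks holding it. The homeodomain core TAATTA was under 2 control peaks and 1 sgSNHG1 peak, 7.69% and 3.57%, against 4.21% and 4.54% of all. The GATA site AGATAA was under 1 and 0, against 11.2% and 11.2% of all. The TATA box TATAAA was under 0 and 1, against 6.72% and 7.19% of all. A match describes the letters in the window and does not show that a factor was bound.

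Non-coding RNA genes lie among the HOX genes, and some share a promoter peak with one. Of 24 such genes 7 had a promoter peak in control, 29.2%, and 6 in sgSNHG1, 25%, with 4 in both. The share over all non-coding genes is not given here, so these counts have no reference of their own. HAGLR shared the HOXD1 peak, HOTTIP, which recruits the MLL complex to 5′ HOXA genes, shared that of HOXA13, HOXA-AS3 that of HOXA6 and HOXC-AS3 that of HOXC10. Control alone had a promoter peak for HOXC-AS1, HOXC13-AS and HOXD-AS2, which are the HOXC9, HOXC13 and upstream HOXD3 peaks described above. In sgSNHG1 alone MIR615 shared the HOXC5 peak, and HOXB-AS3 had the HOXB6 intron peak. HOTAIR, transcribed from HOXC and known for its link to Polycomb, had none in either list, nor did MIR10A, MIR10B, MIR196A1, MIR196A2 and MIR196B.

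The genes of proteins that act with HOX proteins or on HOX chromatin are set beside the 66.3% and 62.1% of all protein-coding genes that carried a promoter peak. Of 9 TALE homeodomain genes, the PBX, MEIS and PKNOX cofactors of HOX proteins, 7 had a promoter peak in both lists (median log2 ratio -0.09). That share, 77.8%, has an interval of 45.3 to 93.7, which spans the 60.4% of all genes. The fold enrichment at PBX4 was 10.0 against 7.78 (control first), and at MEIS1 6.91 and 8.67. The log2 ratios of PBX4 and MEIS1 were -0.37 and 0.33, with counting errors of 0.33 and 0.31.

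Of 27 Polycomb genes, 26 had a promoter peak in control and 23 in both lists (median log2 ratio -0.06). EZH2, the enzyme that methylates histone H3 at lysine 27, had 9.54 on 82 fragments in control and 7.72 on 48 in sgSNHG1. CBX7, a reader of that mark, had 3.28 and 5.44 (log2 ratio 0.73, counting error 0.51), and PCGF6 had 7.53 and 4.43 (log2 ratio -0.76, counting error 0.50).

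Of 16 Trithorax and MLL genes, 15 had a promoter peak in each list and 14 in both. The median log2 ratio was -0.18 (interval -0.37 to -0.12), with 12 of 14 lower, beside 60.6% lower over all protein-coding genes. CXXC1, a CpG-binding subunit, had 12.8 in control and 11.3 in sgSNHG1. PSIP1 on chromosome 9, whose protein tethers MLL to chromatin, had 11.1 on 57 fragments in control and 4.78 on 12 in sgSNHG1 (log2 ratio -1.21, counting error 0.46). On the scaled pileup the log2 ratio of PSIP1 was -1.89. The gap between these ratios reflects a scaled local background that was also lower in sgSNHG1, where it stood at the genome-wide value of that list. What lowered it was not tested.

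Of 15 genes of the caudal and retinoic acid inputs that switch on HOX clusters in the embryo, 8 had a promoter peak in control and 6 in both lists. ALDH1A2, which makes retinoic acid, had 8.77 in control and 9.77 in sgSNHG1, and the receptor gene RXRA had 4.07 and 5.35 (log2 ratio 0.39, counting error 0.46). No CDX gene had a promoter peak in either list. Over the 6 genes the median log2 ratio was 0.22 (interval -0.26 to 0.39), with 5 higher in sgSNHG1. Of all protein-coding genes with a promoter peak in both lists, 4754 of 12058 were higher, with a median of -0.07. None of the 6 ratios exceeded its counting error. Of the 5 ParaHox and EVX genes, the closest relatives and neighbours of HOX genes, GSX2 alone had a promoter peak, in control.

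Other homeobox genes stood between the HOX genes and the genome. Of 64 such genes outside the clusters, 32 had a promoter peak in control and 30 in sgSNHG1, 50% and 46.9%, with 26 in both and a median log2 ratio of -0.07. Their intervals, 38.1 to 61.9 in control and 35.2 to 58.9 in sgSNHG1, overlapped those of the HOX genes. SIX2 had 9.34 in control and 9.98 in sgSNHG1, DLX6 9.23 and 8.70, and IRX6 6.80 and 4.42 (log2 ratio -0.62, counting error 0.47).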

How the data were processed

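ATAC-seq peaks of SK-N-BE(2)C cells were analysed from 2 peak lists, 1 per group. Per the study's methods, cutadapt was used for trimming, BWA for alignment to GRCh38 and Picard for marking duplicates. The authors removed duplicate, multiply mapped, mitochondrial and blacklisted reads, and shifted read ends with deepTools. Replicates were combined and peaks called with MACS2 in paired-end mode. Versions and the significance threshold are not given in the sources used here. The smallest -log10 q was 2.00 in control and 2.01 in sgSNHG1. Removing duplicates lowers the deepest peaks, and pooling hides peaks of a single library.

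In the deposited lists the score restates the -log10 q, multiplied by 10. The deposited fold enrichment is the ratio of pileup to local background, with a pseudocount of 1 on each. The deposited -log10 p and -log10 q follow a Poisson model of the pileup. Pileup and local background were solved from fold enrichment and -log10 p within 0.001, for 47576 control and 42653 sgSNHG1 peaks and for all peaks of the HOX clusters, and the solver was tested on simulated data. The smallest local background served as the genome-wide one for scaling.

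Genes and TSSs came from GENCODE version 44, on chromosomes 1 to 22 and X. The clusters span 27100354 to 27200091 on chromosome 7 (HOXA), 48528526 to 48728750 on 17 (HOXB), 53938831 to 54056030 on 12 (HOXC) and 176092721 to 176190907 on 2 (HOXD). Each gene took the fold enrichment of its highest promoter peak. Shares have Wilson intervals and medians order-statistic intervals. Standard errors come from Poisson counting of both pileups. All 38 HOX genes were accounted for. Named beside them were the 5 highest cluster peaks per list, single-list peaks with a -log10 q of at least 10, the pairs with the highest and lowest ratio, and up to 4 genes of each other list with the highest control value or the largest log2 ratio. The HOX genes and gene lists were chosen with earlier results of these data known. Some items, another HOX gene among them, are not reported here. Python 3.11.15, numpy 2.4.6, pandas 2.3.3, scipy 1.17.1 and matplotlib 3.10.9 were used. Alternatives changed the TSS window, the TSS set, the significance of peaks, the extent of the clusters, the overlap and the measure.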

Additional observations from a re-analysis of the deposited data

How the results depend on the processing

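No paired analysis was possible because the replicates were combined before peaks were called, and for the same reason no replicate could be left out. Of 35 alternatives over 8 results, 24 stayed close to the reported value, 10 moved and 1, the median log2 ratio over cluster pairs, turned its direction. Close meant within a factor of 1.5 for a count, and inside the reported interval for a share or median. That interval is wide, so that medians of -0.35 and -0.03 both counted as close to -0.20. With a -log10 q of at least 10, 6 HOX genes had a promoter peak in control, 2 in sgSNHG1 and 1 in both, the clusters held 12 and 5 peaks, the shares overlapping the other list were 16.7% and 40%, and the median log2 ratio turned to 0.078, over 2 pairs. With a window of 3 kb, 18 HOX genes had a promoter peak in sgSNHG1. Requiring 50% of both peaks to overlap gave shares of 42.3% in control and 39.3% in sgSNHG1. The median log2 ratio over cluster pairs stayed below 0 in 5 of 6 alternatives. Taking the strongest overlapping sgSNHG1 peak, an alternative chosen after seeing the data, gave -0.04. The cause of these moves was not tested, apart from the fewer peaks that a stricter significance leaves. Pileups of 11 to 45 fragments at HOX peaks limit what can be seen, and a HOX gene without a peak had none that passed the authors' threshold at this depth.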
